A study of Mus musculus with 2 samples.

Results

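The genes described are 29 genes of cholesterol synthesis, its regulation, and cholesterol efflux, storage and lysosomal export, taken by symbol from the 32285 genes listed for both libraries. Of these, 18 encode enzymes of synthesis (Acat2, Hmgcs1, Mvk, Pmvk, Mvd, Idi1, Fdps, Fdft1, Sqle, Lss, Cyp51, Tm7sf2, Msmo1, Nsdhl, Hsd17b7, Ebp, Sc5d and Dhcr7). Another 5 are regulators (Srebf1, Srebf2, Scap, Insig1 and Insig2), and 6 serve efflux, storage and lysosomal export (Stard4, Abca1, Abcg1, Soat1, Npc1 and Npc2). They were measured by 5' single-cell RNA sequencing in immune cells from mouse brains bearing GL261, a glioma cell line, after an antibody that blocks the T cell receptor PD-1. Each genotype is 1 library pooled from 5 brains: wild type, and a library labelled Fcgr2b knockout, in which the inhibitory Fc receptor gene was to be lost. Mice of both groups received 100000 GL261 cells on day 0 and 200 ug of anti-PD-1 on days 10, 13 and 16, and brains were taken on day 20. Cells were sorted as CD45.2-positive and negative for the dead-cell dye 7-AAD. Strain, age and the part of Fcgr2b that was removed are not given in the sources used here. The labels give polyadenylated RNA for the wild-type library and total RNA for the other, a difference that cannot be told apart from genotype, and the sorting text speaks of lung where the tissue is brain.

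After filtering, 3538 wild-type cells (median 2598 UMIs, the unique molecule counts) and 8145 cells of the other library (median 3959) remained. Named cell classes were compared where both libraries held 50 cells or more, which left 13 classes, and over those the median log2 ratio of all genes ran from -0.20 to 0.04. Fcgr2b itself was still counted in the library labelled knockout, with 4979 UMIs (117 CPM, UMIs scaled to a common total) against 805 UMIs (62.8 CPM) in wild type. Within classes its level was 387 against 252 CPM in macrophages or monocytes, 371 against 127 CPM in microglia and 132 against 122 CPM in type 2 conventional dendritic cells. Reads from the 5' end may lie outside a deleted part, so these values do not settle the label. The 2 libraries are therefore called the wild-type library and the library labelled knockout throughout.

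Cholesterol is built from acetyl-CoA through mevalonate, isoprenoids and squalene, and the last steps reshape the sterol ring. When membranes of the endoplasmic reticulum are poor in sterol, the escort protein SCAP carries the SREBP factors to the Golgi, where they are released to switch on most synthesis enzymes; the INSIG proteins hold them back when sterol is plentiful. Surplus sterol is esterified for storage or pumped out by ABC transporters under the oxysterol-sensing LXR receptors, and macrophages and microglia in the brain use this route to dispose of lipid from engulfed myelin and dead cells.

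Promoter stretches of 4 of the genes are shown, picked after the values below were seen. They come from RefSeq windows (GRCm38.p6) that run from 250 bases before to 50 bases after each gene's start, 5′ to 3′ on the gene's strand. Capitals mark the core of the sterol regulatory element, TCACNCCA, or the CCAAT box, CCAAT, read on either strand.
Hmgcs1: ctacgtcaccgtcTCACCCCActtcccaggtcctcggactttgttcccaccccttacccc
Msmo1: ttcTCACTCCAtccgcgcagCCAATgactg
Srebf2: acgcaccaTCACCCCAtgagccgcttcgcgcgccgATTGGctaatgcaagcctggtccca
Pmvk: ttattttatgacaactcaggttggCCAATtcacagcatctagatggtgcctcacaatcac
The Hmgcs1 stretch lies at chr13:119690201-119690260 on the plus strand, with the sterol element starting 137 bases before the start. The Msmo1 stretch lies at chr8:64733729-64733758 on the minus strand, with the element 177 bases before the RefSeq start; GENCODE annotates an exon with untranslated sequence of a longer Msmo1 transcript there. The Srebf2 stretch (chr15:82147099-82147158, plus strand) holds the element at 162 bases before the start, and the Pmvk stretch (chr3:89454381-89454440, plus strand) holds a CCAAT box at 136 bases; neither overlaps an annotated exon. Windows were found for 23 of the 29 genes; Fdps, Fdft1, Sqle, Stard4, Abcg1 and Npc1 had no entry. TCACNCCA was present for 3 of the 23 genes (13.0%), which are Hmgcs1, Msmo1 and Srebf2, and for 4.97% of all 27025 genes with a window. The 8 letters were not in the windows of Pmvk, Ebp, Idi1, Cyp51, Insig1 or Abca1. Idi1, Cyp51 and Insig1, lower in dendritic classes below, thus lacked them as Pmvk did. The letters therefore do not separate the lower genes from Pmvk. CCAAT was present for 20 of the 23 (87.0%) and for 41.1% of all genes. A match is a string of letters and not a shown binding site.

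With 1 library per genotype there is no replicate check and no test. Levels are CPM of the summed UMIs of a class, ratios are the library labelled knockout over wild type, and their 95% intervals cover counting error only. A gene counts as measured in a class at a mean of at least 20 CPM over the libraries and at least 10 UMIs. A high level in 1 library alone can meet that mean, and the shares over all genes follow the same rule. A measured gene counts as higher or lower past 1.5-fold, on a log2 ratio with 10 CPM added to each level. By that measure 22 of the 29 genes were measured in at least 1 of the 13 classes, and Ebp, Soat1 and Npc2 in all of them. Acat2, Hsd17b7, Lss, Mvd, Mvk, Nsdhl and Tm7sf2 were measured in none of the 13, so most of what follows rests on 11 enzymes.

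The synthesis enzymes were at their highest in dendritic cells of the wild-type library, and it was in dendritic cells that the library labelled knockout was lowest against it. The summed level of the 18 enzymes was 599 CPM in wild type and 263 CPM in the library labelled knockout in type 1 conventional dendritic cells (cDC1, which present engulfed antigen to CD8 T cells), a ratio of 0.439 (0.381 to 0.505). In type 2 conventional dendritic cells (cDC2) it was 820 against 476 CPM, a ratio of 0.580 (0.522 to 0.644). In migratory dendritic cells, which carry antigen to lymph nodes, it was 800.2 against 421 CPM, a ratio of 0.526 (0.446 to 0.620). The intervals of the 2 libraries did not overlap in any of these 3 classes. B or plasma cells had 415 against 247 CPM, a ratio of 0.597 (0.482 to 0.738), and made up the last of the 4 classes of 13 whose sum was lower by 1.5-fold. Plasmacytoid dendritic cells, with 46 wild-type cells and so outside the 13, stood at 1397 against 724 CPM, 0.518 (0.447 to 0.601).

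**Figure D1:**
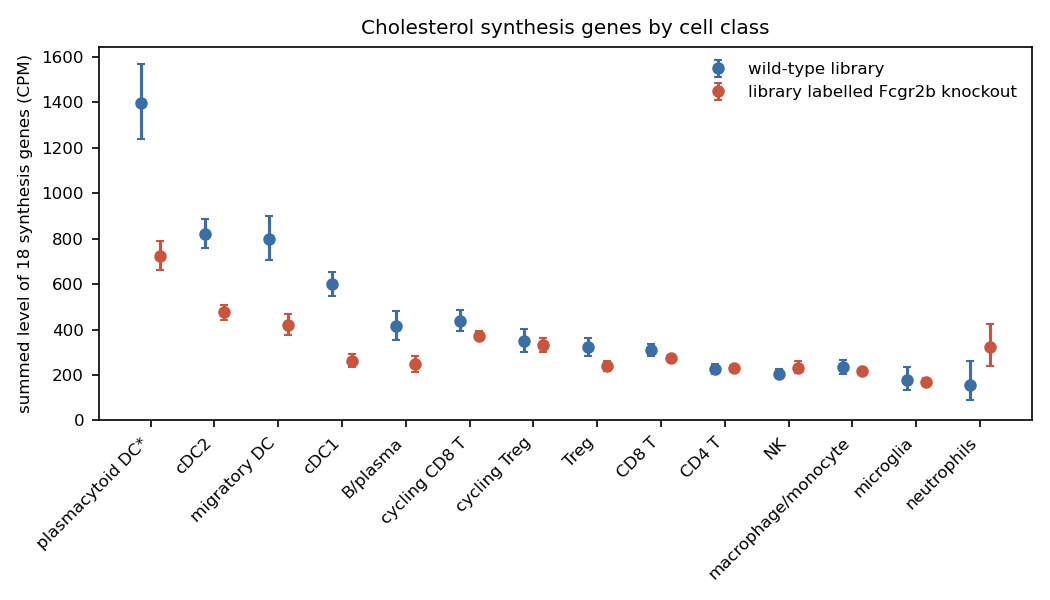
Summed level of the 18 cholesterol synthesis genes (CPM, y axis) in each cell class (x axis) for the wild-type library (blue) and the library labelled Fcgr2b knockout (red), with bars for 95% Poisson intervals (counting error only, 1 library each). The asterisk marks plasmacytoid dendritic cells, with under 50 wild-type cells. The dendritic classes stand highest in wild type (599 to 1397 CPM) and are lower in the other library. In the T, NK and macrophage classes the 2 libraries lie nearer to each other, with regulatory T cells the farthest apart of these (ratio 0.739).

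Elsewhere the sums were nearer to each other. Regulatory T cells stood at 322 against 238 CPM (ratio 0.739, 0.633 to 0.864) and CD8 T cells at 309 against 275 CPM (0.891, 0.806 to 0.986). Conventional CD4 T cells had 226 against 228 CPM (1.01, 0.894 to 1.15) and macrophages or monocytes 235 against 215 CPM (0.918, 0.806 to 1.05). The intervals of the CD4 and macrophage ratios include 1, so no difference was detectable there at this depth. NK cells were at 205 against 233 CPM (1.14, 0.979 to 1.32), and microglia at 178 against 168 CPM (0.942, 0.699 to 1.29). Neutrophils went the other way, 158 against 321 CPM, but on 15 against 49 UMIs, with a ratio of 2.03 (1.12 to 3.91). Markers of cycling cells were at 147 against 1330.1 CPM in neutrophils, and their part in that value was not tested.

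In cDC1, 7 of the 9 measured enzymes were lower by 1.5-fold and none was higher, where 10.5% of all genes measured in that class were lower and 6.04% higher. Their median log2 ratio was -1.27, against -0.07 for all genes. Hmgcs1, which makes the precursor of mevalonate, was at 103 CPM (88 UMIs) in wild type and 19.9 CPM (25 UMIs) in the library labelled knockout, a ratio of 0.193 (0.118 to 0.304). Idi1, the isomerase that balances the isoprenoid building blocks, was at 37.5 against 4.78 CPM (32 and 6 UMIs), 0.127 (0.0435 to 0.309). Msmo1, a methylsterol oxidase of the late pathway, was at 41.0 against 8.75 CPM, 0.213 (0.0978 to 0.430). The genes lower here thus include early and late steps of the pathway. Fdft1, the squalene synthase, was at 32.8 against 7.96 CPM, Sqle, the squalene epoxidase, at 35.2 against 8.75 CPM, and Cyp51, the lanosterol demethylase, at 80.9 against 25.5 CPM. Fdps, the farnesyl diphosphate synthase, was less far apart, at 105 against 53.3 CPM (0.505, 0.363 to 0.701). The intervals of the libraries were separate for each of these 7 genes. Of them, Hmgcs1, Idi1, Msmo1, Fdft1 and Sqle were under 20 CPM in the library labelled knockout. These counted as measured through their wild-type level, so the count of 7 leans on the library where they are high. With the cell richest in enzyme UMIs left out of each library, a choice added after seeing the data, 4 enzymes were lower by 1.5-fold in cDC1. That count again needs a mean of at least 20 CPM, and Fdft1, Idi1 and Sqle lay close to that floor. It therefore cannot tell a changed ratio from a gene that was no longer measured.

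Pmvk and Ebp did not share that pattern. Pmvk, the kinase that acts on phosphomevalonate, was at 69.2 CPM (59 UMIs) and 64.5 CPM (81 UMIs) in cDC1, a ratio of 0.932 (0.658 to 1.33). Ebp, a sterol isomerase, was at 29.3 and 28.7 CPM, 0.978 (0.571 to 1.70). In cDC2 Pmvk was at 229 and 250 CPM (1.09, 0.916 to 1.31) and Ebp at 27.6 and 42.4 CPM (1.54, 0.940 to 2.60). Pmvk thus supplied 27.9% of the synthesis UMIs of wild-type cDC2 and 52.5% of those in the library labelled knockout. Summed without Pmvk and Ebp, a choice made after their values were seen, the ratios were 0.339 in cDC1, 0.325 in cDC2 and 0.419 in migratory dendritic cells.

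In cDC2, 7 of 9 measured enzymes were lower by 1.5-fold (14.7% of all genes were) and none was higher (7.78% of all genes), with a median log2 ratio of -1.10. Idi1 was at 85.4 CPM (68 UMIs) in wild type and 14.9 CPM (25 UMIs) in the other library, a ratio of 0.175 (0.106 to 0.280). Hmgcs1 was at 76.6 against 19.7 CPM (0.257, 0.163 to 0.399) and Msmo1 at 57.8 against 14.9 CPM (0.259, 0.152 to 0.430). Cyp51 was at 122 against 40.0 CPM and Fdps at 71.6 against 28.1 CPM. Sc5d, a late sterol desaturase, was at 36.4 against 14.3 CPM, and Sqle at 27.6 against 12.5 CPM. The 2 libraries' intervals were apart for Idi1, Hmgcs1, Msmo1, Cyp51, Fdps and Sc5d, and overlapped for Sqle. Here too Idi1, Hmgcs1, Msmo1, Sc5d and Sqle were under 20 CPM in the library labelled knockout and counted as measured through wild type.

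Migratory dendritic cells had 6 of 9 measured enzymes lower by 1.5-fold and none higher, where 14.6% of all genes were lower and 9.95% higher, with a median log2 ratio of -1.05. Hmgcs1 was at 110 against 42.9 CPM (0.389, 0.236 to 0.640) and Idi1 at 146 against 41.6 CPM (0.285, 0.177 to 0.454). Sc5d was at 32.7 against 9.09 CPM on 11 and 7 UMIs, and Fdps at 59.5 against 20.8 CPM. Cyp51 (86.3 against 36.4 CPM) and Msmo1 (50.6 against 20.8 CPM) were lower as well, at ratios of 0.421 and 0.411. Hmgcs1, Idi1, Fdps, Cyp51 and Msmo1 were thus past 1.5-fold lower in all 3 dendritic classes over all cells. In cDC2 without any UMI of 12 macrophage markers (42 and 13 cells, a set chosen after seeing the data), Fdps turned to 1.32 and Hmgcs1 to 1.08, with 10 CPM added to each level. Sqle was not lower here, at 17.8 and 23.4 CPM on 6 and 18 UMIs (1.31, 0.498 to 4.03), Ebp was at 17.8 and 26.0 CPM, and Pmvk was at 205 and 153 CPM (0.747, 0.550 to 1.02).

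**Figure D2:**
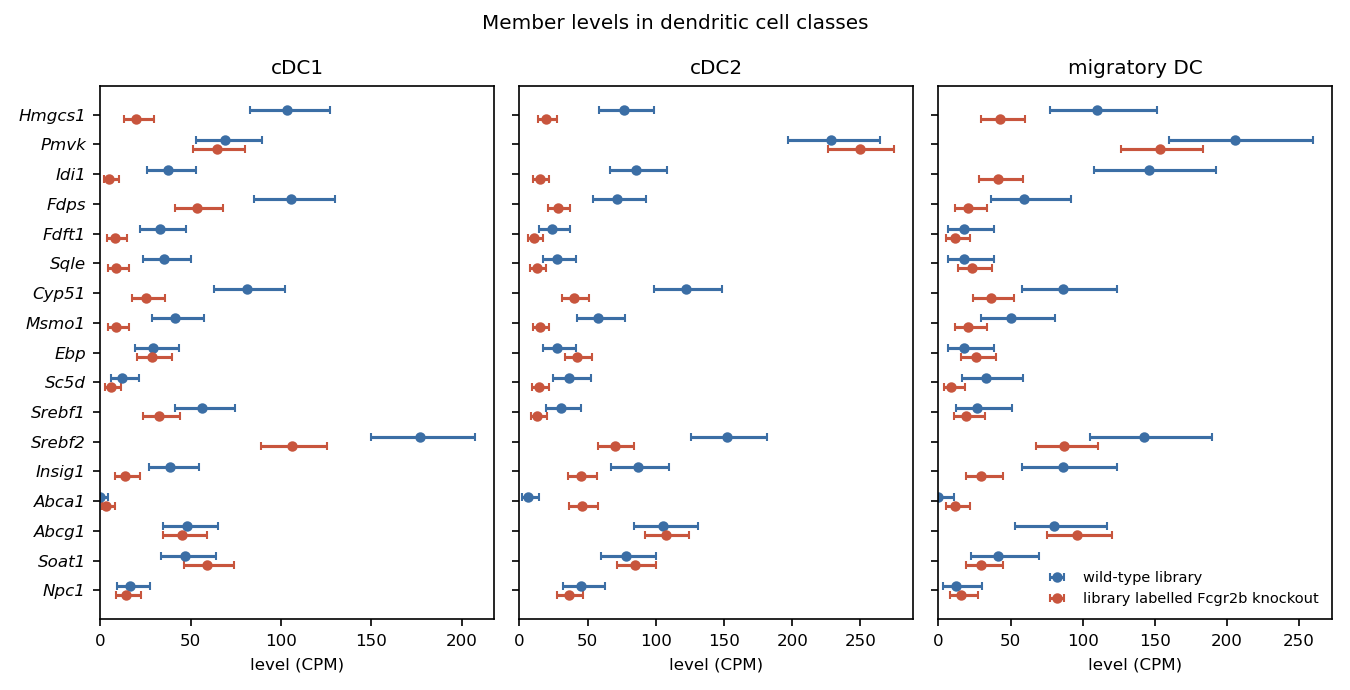
Level of selected members (CPM, linear x axis) in the dendritic cell classes, also where a member was not measured in a class. The wild-type library is in blue and the library labelled Fcgr2b knockout in red, with 95% Poisson intervals (counting error only, 1 library each). In cDC1 and cDC2 the points of Hmgcs1 (103 to 19.9 and 76.6 to 19.7 CPM) and Idi1 (37.5 to 4.78 and 85.4 to 14.9 CPM) are apart, and the bars of Pmvk overlap.

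The share of cells that held any synthesis UMI gave the same order after each cell was thinned to 1500 UMIs. It was 50% of wild-type cDC1 against 34.1% in the library labelled knockout (91.1% and 84.8% unthinned, 1 cell left out of each, median depth 8255 and 12383 UMIs). In cDC2 it was 54.6% against 40.9% (84.2% and 81.1% unthinned, with 6 and 1 cells left out), and in migratory dendritic cells 61.1% against 43.7% (78.8% and 74.8% unthinned, with 8 and 12 left out). Wild type was higher in each, but the exact binomial intervals of the libraries overlap in all 3 (39.8% to 60.2% against 24.5% to 44.7% in cDC1). In CD8 T cells it was 33.4% against 31.4% and in macrophages or monocytes 26.1% against 24.8%, where the intervals overlap widely.

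Other values moved with these dendritic classes. The summed level of 12 macrophage markers was 713 against 3280 CPM in cDC2 and 47.6 against 403 CPM in migratory dendritic cells, but 309 against 275 CPM in cDC1. The summed level of 7 T cell markers was 396 against 89.0 CPM in cDC2, 92.6 against 162 CPM in cDC1 and 107 against 205 CPM in migratory dendritic cells. The classes' own markers were at 1525 against 862 CPM in cDC2, 4836 against 4456 CPM in cDC1 and 17563 against 12368 CPM in migratory dendritic cells. Markers of cycling cells were at 142 against 431 CPM in cDC1. The enzyme sum was taken again in cells chosen after these values were seen. In cells without a UMI of C1qa, C1qb, C1qc or Apoe, genes that macrophages express strongly, the synthesis ratio was 0.465 in cDC1 (98 and 62 cells), 0.597 in cDC2 (151 and 124 cells) and 0.533 in migratory dendritic cells (77 and 79 cells), close to the ratios over all cells. In cells without a UMI of any of the 12 macrophage markers it was 0.455 in cDC1 (29 and 12 cells) and 0.550 in migratory dendritic cells (72 and 50 cells). In cDC2 the same selection left 42 and 13 cells, with 146 and 70 synthesis UMIs and a ratio of 0.946 (0.701 to 1.27), or 0.678 (0.442 to 1.02) without Pmvk and Ebp, so the cDC2 difference was not detectable in that small set. The part of cycling in the cDC1 values was not tested.

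The regulators were lower along with the enzymes in the dendritic classes. In cDC1, 3 of 4 measured regulators were lower by 1.5-fold (10.5% of all genes were), with the sum at 309 against 189 CPM (0.612, 0.512 to 0.732). Srebf2, which encodes the SREBP factor that mainly drives cholesterol genes, was at 177 CPM (151 UMIs) and 106 CPM (133 UMIs), a ratio of 0.598 (0.470 to 0.760). Insig1, itself a target of the SREBP factors, was at 38.7 against 13.5 CPM (0.350, 0.183 to 0.646), and Srebf1 was at 56.3 against 32.6 CPM. Scap, the escort, was level at 21.1 and 20.7 CPM. In cDC2 all 3 measured regulators were lower (14.7% of all genes were): Srebf2 at 152 against 69.9 CPM (0.460, 0.354 to 0.598), Insig1 at 86.7 against 45.4 CPM (0.524) and Srebf1 at 30.1 against 13.1 CPM (0.436). In migratory dendritic cells Srebf2 was at 143 against 87.0 CPM and Insig1 at 86.3 against 29.9 CPM, and these were the 2 of 3 measured that passed 1.5-fold (14.6% of all genes did). In cDC1 without any UMI of the 12 macrophage markers (29 and 12 cells) the Insig1 ratio turned to 1.65, with 10 CPM added to each level. The regulator sum was also lower in B or plasma cells (0.609, 0.468 to 0.793), in microglia (0.605, 0.442 to 0.843) and in macrophages or monocytes (0.720, 0.618 to 0.845), and less so in CD8 T cells (0.861, 0.755 to 0.983).

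Efflux and storage genes did not follow the enzymes in dendritic cells. Summed without Npc2, whose counts are far above the rest, they were at 127 against 130 CPM in cDC1 (1.02, 0.799 to 1.32), 256 against 284 CPM in cDC2 (1.11, 0.938 to 1.31) and 140 against 166 CPM in migratory dendritic cells (1.19, 0.845 to 1.70). All 3 intervals include 1. Abcg1, a transporter that hands sterol to lipoproteins, was at 48.1 and 45.4 CPM in cDC1 and at 105 and 108 CPM in cDC2. Soat1, which esterifies cholesterol for droplets, was at 46.9 and 58.9 CPM in cDC1 and at 77.9 and 84.8 CPM in cDC2. Npc2, which lifts sterol out of the lysosome together with Npc1, was higher by less than 1.5-fold in each, at 713 against 925 CPM in cDC1 and 1054 against 1240 CPM in cDC2.

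Abca1, the pump that loads sterol onto apolipoproteins, was the exception in cDC2, at 6.28 CPM (5 UMIs) in wild type and 46.0 CPM (77 UMIs) in the library labelled knockout, a ratio of 7.33 (3.01 to 23.2). It alone of 5 measured efflux and storage genes there was higher by 1.5-fold, where 7.78% of all genes were. In cDC1 Abca1 had 0 and 4 UMIs and in migratory dendritic cells 0 and 9 UMIs, too few to be measured. The 12 macrophage markers that were higher in cDC2 of that library summed to 27501 CPM in its macrophages or monocytes, where Abca1 stood at 243 CPM. In cDC2 without a UMI of C1qa, C1qb, C1qc or Apoe, Abca1 was at 6.55 and 34.1 CPM, 5.20 (1.99 to 17.2), and without any of the 12 markers it had 1 UMI in each library.

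**Figure D3:**
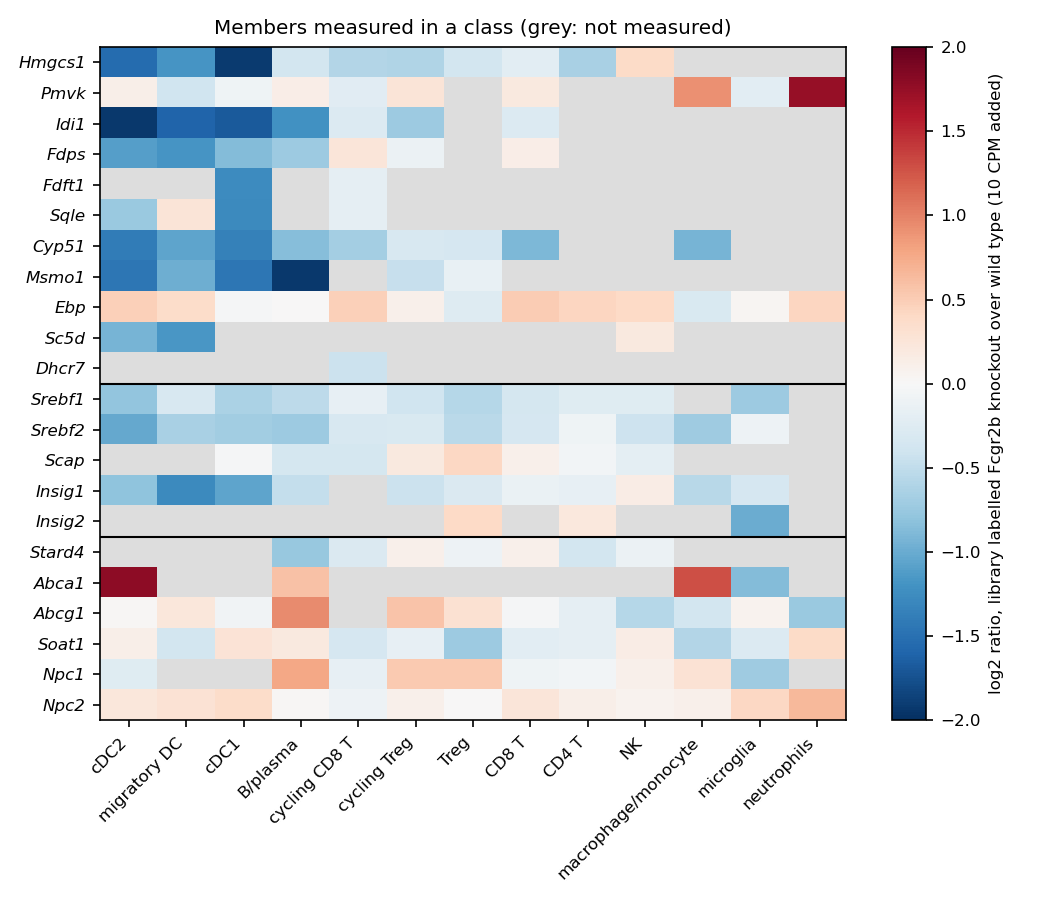
Log2 ratio between libraries (colour, from -2 to 2, wild type as the denominator, 10 CPM added to each level) for each member (rows, by role) and each of the 13 cell classes (columns); grey means not measured. Most enzymes are lower in the dendritic columns, with Pmvk and Ebp near 0 in cDC1, and Abca1 is higher in cDC2 and macrophages or monocytes and lower in microglia.

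In macrophages or monocytes 10 of the 29 genes were measured, and efflux and synthesis genes moved in mixed directions. Abca1 was at 93.3 CPM (97 UMIs) in wild type and 243 CPM (3866 UMIs) in the library labelled knockout, a ratio of 2.60 (2.12 to 3.21), with intervals far apart. Abcg1 was at 142 against 108 CPM (0.759, 0.642 to 0.904) and Soat1 at 179 against 117 CPM (0.651, 0.560 to 0.761). Both were lower, by less than 1.5-fold on the scale with 10 CPM added. Npc1, the lysosomal membrane exporter, was at 43.3 and 55.0 CPM (1.27, 0.942 to 1.76) and Npc2 at 1911 and 2055 CPM (1.08, 1.03 to 1.13). Of the 5 measured, Abca1 was therefore the gene past 1.5-fold, where 11.7% of all genes were higher.

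Among the 3 enzymes measured in macrophages or monocytes, 1 was higher and 1 lower by 1.5-fold, against 11.7% and 19.2% of all genes. Pmvk was at 30.8 CPM (32 UMIs) and 67.0 CPM (1068 UMIs), a ratio of 2.18 (1.53 to 3.20). Cyp51 was at 39.4 CPM (41 UMIs) and 16.0 CPM (255 UMIs), 0.406 (0.291 to 0.579). Ebp was at 40.4 and 30.7 CPM (0.761, 0.555 to 1.07). The near level sum of the enzymes there is thus made of genes that differ in opposite directions; without Pmvk and Ebp it was 0.720. Srebf2 was at 50 against 26.5 CPM (0.531, 0.397 to 0.722) and Insig1 at 87.5 against 56.2 CPM (0.642, 0.517 to 0.806).

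The macrophage class was filled by different clusters in the 2 libraries, and Abca1 differed between those clusters. Of the wild-type cells, 270 of 309 lay in 3 clusters that also held 711 of the 3330 cells of the other library, named here by their leading genes. In the Slfn4 and Ms4a4c cluster (76 and 631 cells) Abca1 was at 148 and 138 CPM, a ratio of 0.934 (0.657 to 1.37). In the Slfn5 and Ifit2 cluster (78 and 55 cells) it was at 97.4 and 83.9 CPM, and in the Chil3 and Vcan cluster (116 and 25 cells) at 66.2 and 6.05 CPM on 30 and 1 UMIs. None of these shared clusters had more Abca1 in the library labelled knockout. Clusters held almost wholly by that library were higher, with 881 CPM in the Slc7a2 and Thbs1 cluster, 351 CPM in the Cxcl2 and Il1b cluster and 180 to 311 CPM in 6 others. The 3 shared clusters were also given the same weights in both libraries, set by their total cell numbers. The Slfn4 and Ms4a4c cluster thus weighed most. The Abca1 ratio was then 0.874 on the scale with 10 CPM added, so the direction of the whole class did not hold under that weighting.

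**Figure D4:**
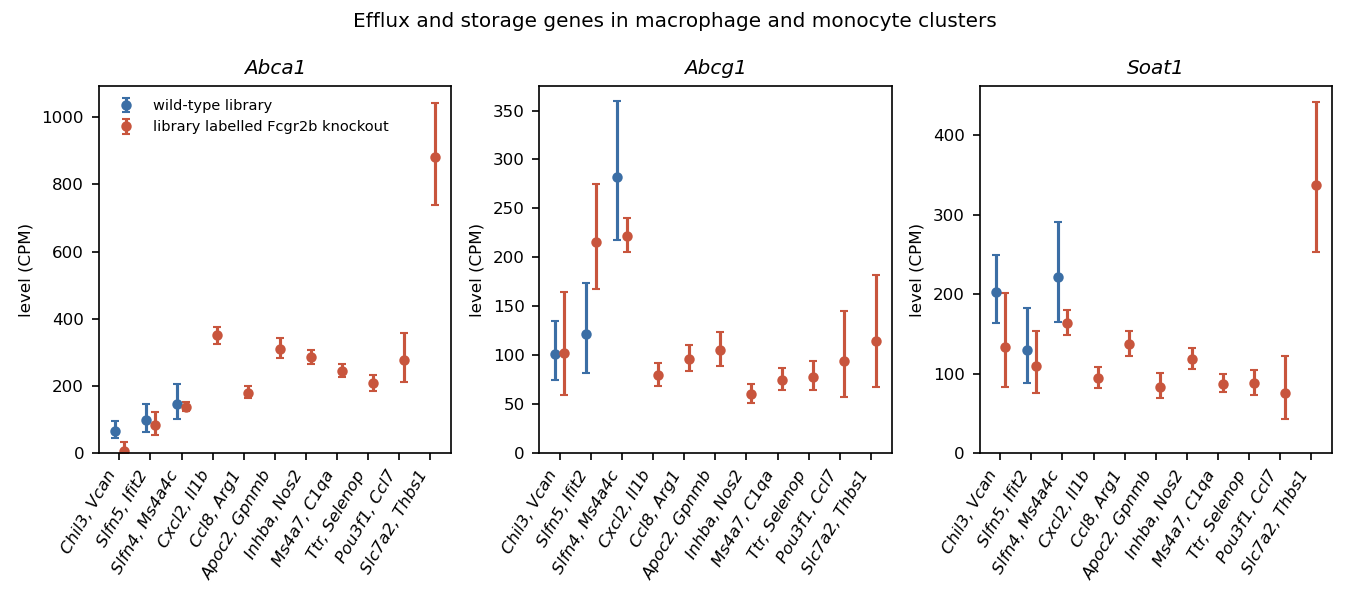
Levels of Abca1, Abcg1 and Soat1 (CPM, y axes) in clusters of macrophages or monocytes (x axis, named by leading genes) in the wild-type library (blue) and the library labelled Fcgr2b knockout (red), with 95% Poisson intervals (counting error only); a point is drawn where a library has at least 20 cells. In the 3 clusters with both libraries Abca1 lies between 6.05 and 148 CPM, while clusters of the library labelled knockout alone reach 881 CPM.

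Other members were lower in 1 shared cluster and not clearly so in the others. In the Slfn4 and Ms4a4c cluster, the largest shared, Insig1 was at 104 and 57.0 CPM (0.548, 0.355 to 0.880), Srebf2 at 60.8 and 28.5 CPM (0.469, 0.264 to 0.898) and Cyp51 at 47.7 and 20.5 CPM (0.429, 0.222 to 0.908). In the Chil3 and Vcan cluster the ratios were 1.13 (0.559 to 2.16) for Insig1, 1.64 (0.733 to 3.53) for Srebf2 and 0.914 (0.215 to 3.01) for Cyp51, on 25 cells of the library labelled knockout. In the Slfn5 and Ifit2 cluster they were 0.903 (0.489 to 1.68), 0.367 (0.114 to 1.03) and 0.729 (0.291 to 1.80). All 6 intervals include 1, so no difference was detectable in those 2 clusters. Back in the Slfn4 and Ms4a4c cluster, Pmvk was at 39.1 and 54.9 CPM on 9 and 150 UMIs (1.40, 0.720 to 3.13), and Soat1 at 221 and 164 CPM (0.742, 0.554 to 1.01). The intervals of Pmvk and Soat1 include 1.

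In microglia, the brain's resident phagocytes, Abca1 was lower, opposite to macrophages or monocytes, and the difference between these classes was not tested. It was at 416 CPM (119 UMIs) in wild type and 223 CPM (413 UMIs) in the library labelled knockout, a ratio of 0.536 (0.436 to 0.663). Npc1 was at 108 and 62.1 CPM (0.573, 0.383 to 0.882). Abca1 and Npc1 were the 2 of 5 measured efflux and storage genes lower by 1.5-fold, where 19.7% of all genes in microglia were lower and 9.12% higher. Abcg1 (136 and 144 CPM) and Soat1 (94.4 and 76.2 CPM) had ratios whose intervals include 1, and Npc2 was at 997 and 1328 CPM (1.33, 1.18 to 1.51). Of the regulators, Insig2 was at 45.5 and 17.8 CPM on 13 and 33 UMIs (0.392, 0.201 to 0.812) and Srebf1 at 38.5 and 19.4 CPM (0.506, 0.252 to 1.10). Only 2 enzymes, Pmvk and Ebp, were measured in microglia, and neither passed 1.5-fold. In this class 11 microglia markers summed to 8303 and 6300.3 CPM and the 12 macrophage markers to 18331 and 26594 CPM, and their part in these values was not tested.

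B or plasma cells had 4 of 7 measured enzymes lower by 1.5-fold (11.8% of all genes were) and 3 of 6 efflux, storage and lysosomal genes higher (13.8% of all genes were). Msmo1 was at 58.2 CPM (24 UMIs) and 7.94 CPM (6 UMIs), a ratio of 0.136 (0.0456 to 0.343), and Idi1 at 43.6 and 13.2 CPM (0.303, 0.125 to 0.693). Cyp51 was at 55.8 and 26.5 CPM (0.474, 0.247 to 0.903) and Fdps at 43.6 and 22.5 CPM (0.515, 0.250 to 1.06). Abcg1 was at 41.2 and 88.6 CPM (2.15, 1.25 to 3.91), Abca1 at 58.2 and 92.6 CPM (1.59, 0.988 to 2.65) and Npc1 at 14.5 and 31.7 CPM (2.18, 0.869 to 6.53). Only the Abcg1 interval of these 3 excludes 1. Stard4, a soluble sterol carrier, went with the enzymes, at 33.9 and 15.9 CPM (0.468, 0.198 to 1.09). The enzyme sum here rested on few cells: 1 wild-type cell held 21.6% of its synthesis UMIs, and with each cell thinned to 1500 UMIs the ratio was 0.931 and 0 enzymes were lower by 1.5-fold. Cells with at most 5% immunoglobulin UMIs, a split made after seeing the data, gave 0.502 (76 and 158 cells). Cells over 5% numbered 15 in wild type and 3 in the other library, with a ratio of 0.834 (0.361 to 1.71). The make-up of the class thus differed between the libraries, and 6 B cell markers summed to 2473 and 4125 CPM. The part of this in the single-gene values was not tested.

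In T and NK cells few members passed 1.5-fold. In CD8 T cells it was 1 of 6 measured enzymes, where 6.06% of all genes were lower and 3.67% higher. That enzyme was Cyp51, at 57.4 CPM (95 UMIs) and 26.3 CPM (155 UMIs), a ratio of 0.458 (0.353 to 0.598). Ebp was at 31.4 and 49.1 CPM (1.56, 1.16 to 2.14), Pmvk at 18.1 and 22.1 CPM, Idi1 at 25.4 and 19.4 CPM, Hmgcs1 at 34.5 and 28.5 CPM and Srebf2 at 73.2 and 56.1 CPM (0.766, 0.620 to 0.952). In conventional CD4 T cells it was Hmgcs1 (1 of 2 measured enzymes, with 5.32% of all genes lower and 3.92% higher), at 35.9 and 19.2 CPM (0.536, 0.372 to 0.774), while Ebp was at 32.9 and 47.6 CPM, a ratio of 1.45. In both T cell classes Ebp therefore lay on the other side of 1 from the enzyme that passed 1.5-fold.

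Regulatory T cells had none of 4 measured enzymes past 1.5-fold (7.26% of all genes were lower and 5.1% higher) and 1 of 5 efflux and storage genes lower, which was Soat1 at 80.5 and 44.4 CPM (0.552, 0.396 to 0.774). Their Srebf2 was at 121 and 79.8 CPM (0.661, 0.510 to 0.861) and Npc1 at 27.7 and 43.9 CPM (1.59, 0.986 to 2.66). The NK cell class was also near level, as none of 12 measured members passed 1.5-fold, where 5.28% of all genes were lower and 3.86% higher. The member farthest apart in NK cells was Abcg1, at 87.6 and 55.9 CPM (0.638, 0.481 to 0.841), in a class whose 8 NK markers summed to 12532 and 7518 CPM. The highest enzymes there were Hmgcs1, at 31.4 and 43.8 CPM (1.40, 0.963 to 2.02), and Ebp, at 26.6 and 38.5 CPM (1.45, 0.970 to 2.15). In neutrophils 1 of 2 measured enzymes was higher (25.6% of all genes were, and 27.1% were lower), which was Pmvk on 1 and 9 UMIs.

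Cycling T cells, which must make membrane to divide, were compared with their non-cycling counterparts in the same library. Cycling CD8 T cells had a synthesis sum of 438 CPM against 309 CPM in CD8 T cells of wild type, a ratio of 1.42 (1.24 to 1.63), and 374 against 275 CPM in the other library, 1.36 (1.26 to 1.46). Cycling regulatory T cells had 348 against 322 CPM in wild type (1.08, 0.890 to 1.31) and 331 against 238 CPM in the other library (1.39, 1.22 to 1.58). The wild-type interval includes 1, and the difference between those ratios was not tested. Stard4 was higher in cycling than in non-cycling CD8 T cells in both libraries (63.7 against 35.7 CPM and 50.5 against 39.1 CPM), and Npc2 lower (227 against 370 CPM and 211 against 442 CPM). Between libraries, cycling CD8 T cells had 2 of 9 measured enzymes lower by 1.5-fold (7.98% of all genes were lower and 6.13% higher), Hmgcs1 at 63.7 and 39.1 CPM and Cyp51 at 59.9 and 33.7 CPM, and Ebp at 40.0 and 59.8 CPM. Cycling regulatory T cells also had 2 lower, of 7 measured (7.45% of all genes were lower and 7.52% higher), which were Hmgcs1 at 41.1 and 23.7 CPM and Idi1 at 44.9 and 23.0 CPM.

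Across classes of wild type, the summed enzymes were highest in the dendritic classes. In the library labelled knockout, plasmacytoid dendritic cells (724 CPM), cDC2 (476 CPM) and migratory dendritic cells (421 CPM) were highest. There cDC1, at 263 CPM, lay below cycling CD8 T cells (374 CPM) and cycling regulatory T cells (331 CPM), among others. The sums of cDC2 and cDC1 were nearer to that of CD8 T cells in that library than in wild type. In wild type the cDC2 sum was 2.65 times (2.36 to 2.99) that of CD8 T cells and the cDC1 sum 1.94 times (1.71 to 2.20). In the other library these were 1.73 (1.59 to 1.88) and 0.954 (0.845 to 1.07), so cDC1 no longer stood apart from CD8 T cells. Without Pmvk and Ebp the cDC2 sum was 2.17 times that of CD8 T cells in wild type and 0.899 times in the other library. Among wild-type classes of at least 50 cells, migratory dendritic cells were highest for Hmgcs1 (110 CPM) and Idi1 (146 CPM), cDC1 for Fdps (105 CPM), Fdft1 (32.8 CPM) and Sqle (35.2 CPM), and cDC2 for Pmvk (229 CPM), Cyp51 (122 CPM) and Sc5d (36.4 CPM). For each of these the interval of the highest class overlapped that of the next. Microglia were the lowest in wild type for Hmgcs1 (17.5 CPM), Fdps (10.5 CPM) and Msmo1 (10.5 CPM), and neutrophils for Cyp51 (10.5 CPM). NK cells were lowest for Idi1 (10.5 CPM), migratory dendritic cells for Ebp (17.8 CPM) and cycling regulatory T cells for Sc5d (7.48 CPM). B or plasma cells and cDC2 shared the top for Msmo1 (58.2 and 57.8 CPM), and cycling CD8 T cells led for Dhcr7, the last reductase of the pathway (25.0 CPM). Fdft1 and Dhcr7 had no UMI in wild-type neutrophils, where a count of 0 allows up to 31.6 CPM, and Sqle none in wild-type microglia, where it allows up to 10.5 CPM.

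Where plasmacytoid dendritic cells reached 50 cells, in the library labelled knockout, they were the highest class for Hmgcs1 (71.5 CPM), Idi1 (97.3 CPM), Fdps (100.1 CPM), Sqle (35.8 CPM), Cyp51 (67.2 CPM), Msmo1 (97.3 CPM), Sc5d (27.2 CPM) and Dhcr7 (22.9 CPM). Their intervals stood apart from the next class for Idi1 and Fdps. Idi1 was lowest in cDC1 (4.78 CPM) and Msmo1 in B or plasma cells (7.94 CPM), Fdps was lowest in regulatory T cells (12.6 CPM), while microglia were lowest for Hmgcs1 (14.0 CPM), Cyp51 (10.3 CPM) Sc5d (5.40 CPM), Ebp (25.4 CPM) and Fdft1 (4.32 CPM). Fdft1 was highest in cycling regulatory T cells (25.7 CPM). Sqle and Dhcr7 had no UMI in neutrophils, where a count of 0 allows up to 19.7 CPM. Pmvk kept its highest class, cDC2, in both libraries (229 and 250 CPM), and was lowest in mast cells or basophils in wild type (7.08 CPM) and in NK cells in the other (10.6 CPM). Ebp was highest in regulatory T cells (49.0 CPM) and then in cycling CD8 T cells (59.8 CPM), with overlapping neighbours.

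Regulators ranked differently. Srebf2 was highest in wild-type cDC1 (177 CPM), followed by B or plasma cells (153 CPM), and in plasmacytoid dendritic cells of the other library (112 CPM), followed by cDC1 (106 CPM), with overlapping intervals each time. Srebf2 was lowest in microglia in both libraries (24.5 and 22.1 CPM). Insig1 was highest in wild-type macrophages or monocytes (87.5 CPM) next to cDC2 (86.7 CPM), and in plasmacytoid dendritic cells of the other library (73.0 CPM). Insig2 was highest in wild-type microglia (45.5 CPM) and in conventional CD4 T cells of the other library (24.9 CPM), and Srebf1 in cDC1 (56.3 CPM) and cycling CD8 T cells (37.0 CPM). Scap was highest in cycling CD8 T cells (32.5 CPM) and then in plasmacytoid dendritic cells (75.8 CPM), the latter apart from the next class. At the low end, neutrophils had no UMI of Srebf1, Scap or Insig2 in wild type and 10.5 CPM of Insig1, and in the other library cDC1 were lowest for Insig1 (13.5 CPM) and neutrophils for Srebf1 and Scap (6.55 CPM each) and for Insig2 (no UMI).

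The efflux and storage genes were ranked among classes of at least 50 cells in a library. Abca1, Soat1 and Npc2 were highest in macrophages or microglia in both libraries, Abcg1 and Npc1 in wild type, and Stard4 in neither. Abca1 in wild type was highest in microglia (416 CPM), apart from macrophages or monocytes (93.3 CPM), at 4.46 times their level (3.38 to 5.89). In the library labelled knockout macrophages or monocytes (243 CPM) and microglia (223 CPM) overlapped. Abca1 had 0 UMIs in wild-type CD8 T cells, which allows a level of up to 1.81 CPM, and 10 UMIs (1.70 CPM) in the other library, where cycling CD8 T cells were lowest (0.518 CPM). Soat1 was highest in macrophages or monocytes in both libraries (179 and 117 CPM), apart from the next class. Npc2 was too (1911 and 2055 CPM), apart from migratory dendritic cells in wild type (1657 CPM) and overlapping them in the other library (2017 CPM). Abcg1 was highest in macrophages or monocytes and microglia of wild type (142 and 136 CPM, overlapping). In the other library it was highest in plasmacytoid dendritic cells (236 CPM), apart from microglia (144 CPM). Npc1 was highest in microglia of wild type (108 CPM) and in plasmacytoid dendritic cells of the other library (279 CPM), each apart from the next class. Wild-type plasmacytoid dendritic cells, with under 50 cells, were not ranked, and their Npc1 level, given below, was above that of microglia. Stard4 was highest in T cells, with cycling CD8 T cells at 63.7 CPM in wild type and cycling regulatory T cells at 52.8 CPM in the other library. The lowest classes were cycling CD8 T cells for Abcg1 (20.0 CPM on 16 UMIs and 15 CPM on 58 UMIs), B or plasma cells for Npc2 (184 and 187 CPM) and, for Soat1, B or plasma cells in wild type (21.8 CPM) and plasmacytoid dendritic cells in the other library (14.3 CPM). Npc1 was lowest in migratory dendritic cells (11.9 CPM) and in neutrophils (13.1 CPM), and Stard4 in neutrophils (no UMI) and in microglia (4.32 CPM).

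Related lists were counted by the same rule in each class. The all-gene shares for lower and higher were 10.5% and 6.04% in cDC1, 14.7% and 7.78% in cDC2, and 14.6% and 9.95% in migratory dendritic cells, and a single call in lists this short is near them. In cDC1, none of 10 measured partners of SREBP processing and sterol sensing and 1 of 5 measured SREBP-driven fatty acid genes passed 1.5-fold lower, with none higher. In cDC2 it was 1 of 9 partners and 1 of 4 fatty acid genes lower, with 1 fatty acid gene higher, and in migratory dendritic cells 2 of 9 partners lower, 2 higher, and none of 3 fatty acid genes. The summed fatty acid list had ratios of 0.768, 0.824 and 0.811 in the 3 classes, nearer to 1 than the cholesterol enzymes. Other lists also held calls. In cDC2, 2 of 4 genes of the mevalonate side branches were lower and none higher. Of 7 lipid droplet and scavenging genes there 3 were lower and 2 higher, and of 13 glycolysis genes 1 was lower and 5 higher. Migratory dendritic cells had 3 of 6 droplet and scavenging genes lower and none higher. Among 10 cell cycle genes in cDC1, 6 were higher and none lower.

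In macrophages or monocytes, where 19.2% of all genes were lower and 11.7% higher, 2 of 8 measured SREBP partners were lower and none higher; Erlin1 (0.531) and Ube2g2 (0.576), which serve degradation at the endoplasmic reticulum, and Rnf139 (0.609) had the lowest ratios. Of 3 measured fatty acid genes 1 was lower, Acly, which makes cytosolic acetyl-CoA (80.8 and 48.8 CPM, 0.604), with Elovl5 at 0.694 and Mvb12a, a subunit of the ESCRT-I sorting complex that the list also holds, at 1.19. The LXR list had 3 of 9 measured genes higher and 2 lower. Its sum of 2520 and 10772 CPM was carried by Apoe, the lipid-carrying apolipoprotein (1522 and 9782 CPM, 6.43, 6.12 to 6.76), while Smpdl3a (243 and 33.5 CPM, 0.138) and Abca7 (71.2 and 18.1 CPM, 0.254) were lower. Genes of this list, which also holds receptors, thus differed in both directions, and the part of LXR in these values was not tested. In the lipid droplet and scavenging list 5 of 9 measured genes were higher and 1 lower, led by Trem2, a lipid-sensing receptor (47.1 and 264 CPM, 5.61), Hilpda (73.1 and 330.0 CPM, 4.51) and Fabp5 (187 and 489 CPM, 2.62). Of 16 measured genes for sterol handling in lysosome and membranes 3 were lower and none higher: Scarb1 (0.360), Lamp2 (0.434) and Osbpl9 (0.475). That share is near the 19.2% of all genes. None of 5 measured genes of the mevalonate side branches passed 1.5-fold (Rabggtb 1.39, Nus1 1.38, Rabggta 0.692). In the glycolysis list 5 of 13 were higher and 1 lower, with Aldoa at 2.88, Tpi1 at 2.17 and Gapdh at 2.05. The make-up of the macrophage class differs between the libraries, as above, and its part in these values was not tested.

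In CD8 T cells the same lists had few calls, near the shares of all genes (6.06% lower and 3.67% higher) given how short the lists are. None of 8 SREBP partners passed 1.5-fold (Ube2g2 0.664, Vcp 0.701), and 1 of 5 fatty acid genes was lower, Scd2, a fatty acid desaturase (37.5 and 19.5 CPM, 0.521), with Elovl5 at 0.623. Of 8 measured LXR genes, Apoe was higher (3.63 and 37.0 CPM) and Scd2, which is on both lists, lower. The 12 macrophage markers summed to 17.5 and 152 CPM in the same cells, and their part in the Apoe value was not tested. Of 5 droplet genes Fabp5 was higher (16.3 and 49.8 CPM, 3.05) and Dgat1, an enzyme of triglyceride synthesis, lower (435 and 279 CPM, 0.641). Tspo, a mitochondrial membrane protein, was higher (188 and 361 CPM, 1.92) and Lamp2 at 0.647 in the sterol handling list, where 1 of 11 was higher and none lower. None of 7 measured genes of the mevalonate side branches passed 1.5-fold (Nus1 0.754, Fnta 1.31), and of 13 glycolysis genes Hk2 was lower (0.570), with Aldoa at 1.31.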

How the data were processed

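The authors deposited 1 filtered matrix of UMI counts per library, made with Cell Ranger 6.1.2 per the file headers, against GRCm38 (mm10) per the submitters' processing notes. Barcodes passed with 200 genes or more and a mitochondrial share of 10% or less, and 46 barcodes occur in both libraries. The 119 wild-type and 676 other barcodes with the highest doublet scores were removed. These numbers were set by an assumed rate of 0.8% per 1000 barcodes and not by the scores. Cells of both libraries were clustered together (2000 variable genes without the genes described, 30 components, 15 neighbours, Leiden resolution 1) into 39 clusters, and clusters were named from at least 3 markers of a fixed list. CD8 clusters were those with under 20% Cd4-positive cells, a threshold set after seeing the data. Depth was 12812968 wild-type UMIs and 42617415 in the library labelled knockout.

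UMIs were summed per class and library and scaled to CPM, with exact Poisson intervals, and ratios carry exact conditional intervals (95%). These intervals cover counting error only, not the spread between animals. With 1 library per genotype no test was made. The summing and fold rule were tested on simulated data. The text names every measured gene of the set in macrophages; in other classes the 3 highest and 3 lowest ratios and those at 2-fold or more, with additions chosen after their values were seen; the highest and lowest class of each gene; 3 genes per related list in macrophages and 2 in CD8 T cells; and 5 genes most alike. The genes and lists were chosen with earlier results of these data known. Promoters came from RefSeq. Python 3.11.15, NumPy 2.4.6, SciPy 1.17.1, pandas 2.3.3, scikit-learn 1.9.0, leidenalg 0.10.2, igraph 0.11.9 and Matplotlib 3.10.9 were used.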

Additional observations from a re-analysis of the deposited data

Results flagged for a closer look

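Abca1 lay on opposite sides of 1 in different classes, with a ratio of the library labelled knockout to wild type of 7.33 (3.01 to 23.2) in cDC2 and 0.536 (0.436 to 0.663) in microglia. Abcg1 did so as well, at 2.15 (1.25 to 3.91) in B or plasma cells and 0.638 (0.481 to 0.841) in NK cells. Each interval excludes 1 for counting error, and with 1 library per genotype the difference between classes was not tested. B or plasma cells held 15 and 3 cells over 5% immunoglobulin UMIs, and the part of this in the Abcg1 value was not tested.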

How the results depend on the processing

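Of 393 values of the summed lists and counts under the alternatives, 356 stayed within the interval of the reported value (counts: within 1.5 times), 36 moved and 1 reversed; of 446 single-gene values 409 stayed, 33 moved and 4 reversed. The summed enzyme ratio stayed past 1.5-fold lower in cDC1 and migratory dendritic cells under each setting run; in cDC2 and in B or plasma cells the difference was lost under settings given below. With genes at a mean of at least 50 CPM, the enzymes 1.5-fold lower were 3 in cDC1, 2 in cDC2, 3 in migratory dendritic cells and 0 in B or plasma cells, and with no minimum level 8 in B or plasma cells. With a fold of 2, 1 class had a lower sum and B or plasma cells had 2 lower enzymes. With mitochondrial, ribosomal, receptor and MHC class II genes out of the class total, B or plasma cells had 7 and the cDC2 to CD8 T cell ratio in the library labelled knockout was 1.56. Averaged over cells, the enzyme ratio was 0.508 in cDC2, 0.648 in migratory dendritic cells and 0.872 in B or plasma cells (0 enzymes lower), the efflux ratio in macrophages or monocytes was 1.25, and wild-type cDC2 over CD8 T cells was 3.15. With cells thinned to 1500 UMIs, enzyme ratios were 0.504 in cDC2, 0.931 in B or plasma cells (0 enzymes lower) and 0.887 in regulatory T cells, the regulator ratio in cDC1 was 0.326, and cDC2 over CD8 T cells was 3.18 and 1.91. Free RNA was sized from 12 macrophage genes in lymphoid classes and from 7 T cell genes in the others. In dendritic classes it was thus not sized from macrophage RNA. Subtracting free RNA gave 2.99 for wild-type cDC2 over CD8 T cells, and keeping doublets 0.519 for cDC2 enzymes. Leiden resolution 0.5 gave 1.26 for cycling over non-cycling CD8 T cells of the library labelled knockout. With the shared macrophage clusters given the same weights in both libraries, by their total cell numbers, the efflux ratio was 0.837 and Abca1 reversed to 0.874.

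The following were added after seeing the data. In dendritic cells without a UMI of any of 12 macrophage markers, the cDC2 ratio was 0.946 for enzymes and 0.658 for regulators, and Fdps (1.32) and Hmgcs1 (1.08) in cDC2 and Insig1 (1.65) in cDC1 reversed, on 13 and 12 cells of the library labelled knockout. Without the cell with the most enzyme UMIs, 4 enzymes were lower in cDC1. Without Pmvk and Ebp the enzyme ratio was 0.720 in macrophages or monocytes, 0.339 in cDC1, 0.325 in cDC2, 0.419 in migratory dendritic cells, 0.787 in CD8 T cells and 0.6 in the Slfn4 cluster, and cDC2 over CD8 T cells was 2.17 in wild type and reversed to 0.899 in the other library. Single-gene ratios here carry 10 CPM added to each level. The causes of these shifts were not tested. At Leiden resolutions 0.5 and 2 cycling regulatory T cells formed no class of their own, so the number of classes is not given there. No paired analysis was possible because each genotype has 1 library, and for the same reason no library could be left out. Depth limits neutrophils, microglia and migratory dendritic cells most among the 13 classes, and the 7 enzymes not measured in any class could not be compared.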

Other observations

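Plasmacytoid dendritic cells, which make type I interferon, numbered 46 in wild type and 94 in the library labelled knockout and so were not counted among the compared classes. Their enzymes resembled those of the other dendritic cells in direction. Hmgcs1 was at 216 CPM (44 UMIs) in wild type and 71.5 CPM (50 UMIs) in the other library, a ratio of 0.330 (0.216 to 0.507), Idi1 was at 207 and 97.3 CPM, and Srebf2 at 275 and 112 CPM (0.405, 0.284 to 0.582). Pmvk (103 and 80.1 CPM) and Ebp (44.3 and 42.9 CPM) had ratios whose intervals include 1. Abcg1 was at 103 CPM (21 UMIs) and 236 CPM (165 UMIs), 2.28 (1.45 to 3.79), and Npc1 at 319.8 and 279 CPM.

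Over the 26 points that 13 classes make in 2 libraries, the genes whose level ran most like the summed enzymes, among 5798 genes, were Snd1 (Pearson r 0.81), Myo1g (0.74), Tuba1a (0.74), Avpi1 (0.73) and Gosr2 (0.72). Those most like Abca1 were Apobec1 (0.87), C3ar1 (0.85), Blvrb (0.84), Nt5dc3 (0.83) and Ctsl (0.83). The points of a library share its depth and preparation, so these values describe the libraries only.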
